A study of Mus musculus with 10 samples.

Results

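The small leucine-rich proteoglycans are a family of secreted matrix proteins, and 8 of its genes are described here in C2C12 myotubes given extra Arrdc2. The genes were Dcn, Bgn, Lum, Fmod, Ogn, Aspn, Prelp and Podn. They were found by matching the identifiers of the deposited expression table, with the version removed, to these mouse symbols, which gave 8 of 57010 genes in all. Each member has a short protein core built of leucine-rich repeats. Many carry chains of chondroitin, dermatan or keratan sulfate. These proteins bind fibrillar collagen and set the spacing and width of its fibrils, and several also hold growth factors such as TGF-beta and myostatin in the matrix. In muscle they lie in the connective tissue around the fibres, and cultured myoblasts and myotubes make decorin and biglycan as well.

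RNA was sequenced from 5 samples labelled Arrdc2 and 5 labelled GFP. Both groups were C2C12, an established mouse myoblast line with a genotype labelled WT, differentiated for 3 days in 2% horse serum with 1 µM insulin on plates coated with rat-tail type I collagen. Arrdc2 cells then received an adenovirus encoding Arrdc2 together with Gfp, and GFP cells received one encoding Gfp only, so both groups carried virus and Gfp. In both groups the virus was removed at 24 h, and RNA was taken 48 h after transduction. Arrdc2 is an alpha-arrestin, an adaptor that links membrane proteins to ubiquitin ligases, and the comparison asks which transcripts differ when it is delivered. The cells are a single immortal line, and the labels call them myoblasts although the cultures had been differentiated. Nothing in the labels says that the libraries within a group are from separate cultures. All p-values therefore measure the spread among these libraries alone, which may be technical.

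Depth, solved from the deposited values, lay between 23.5 and 28.65 M (mega) reads in Arrdc2 libraries and between 18.93 and 26.03 M in GFP libraries. Arrdc2 transcript itself averaged 132 ± 15.6 normalised reads in Arrdc2 libraries and 103 ± 14.5 in GFP libraries (SD, n = 5 each), which was 1.29-fold higher (95% interval 1.09 to 1.51; limma adjusted p = 0.0178). The groups overlapped, since GFP library 4 (124 normalised reads) lay above Arrdc2 libraries 7 (123) and 10 (118). Arrdc2 transcript no longer passed when GFP library 3 was left out (limma adjusted p = 0.0501), nor when GFP library 7 was (0.052), nor when Arrdc2 library 9 was (0.057). All 12 myotube markers were detected, with embryonic myosin Myh3 at 51340 normalised reads in Arrdc2 libraries and 51010 in GFP libraries. Of 15223 genes tested, 2212 (14.5%) rose and 2404 (15.8%) fell at a limma adjusted p under 0.05, and these shares are the background for every count below. With each library centred on its median the counts were 1766 and 2960. With reads scaled to the library total they were 3063 and 1774. Normalised reads are whole reads divided by the size factor of the library. Libraries are named by their column number in the deposited table.

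Promoters are shown for the 3 members that passed the test described below and had a promoter entry. Aspn and Prelp, which rose, thus stand beside Bgn, which fell. The call of Bgn was lost in most of the alternative fits described below. Each is the stretch of 250 bases before the transcription start in RefSeq on GRCm38.p6, 5′ to 3′ on the strand of the gene. Capitals mark matches to the searched motifs.
Aspn: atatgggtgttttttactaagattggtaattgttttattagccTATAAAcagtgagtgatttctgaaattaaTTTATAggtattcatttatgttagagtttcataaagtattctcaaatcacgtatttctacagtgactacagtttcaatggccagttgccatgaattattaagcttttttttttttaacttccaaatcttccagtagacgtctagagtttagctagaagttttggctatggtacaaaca
Prelp: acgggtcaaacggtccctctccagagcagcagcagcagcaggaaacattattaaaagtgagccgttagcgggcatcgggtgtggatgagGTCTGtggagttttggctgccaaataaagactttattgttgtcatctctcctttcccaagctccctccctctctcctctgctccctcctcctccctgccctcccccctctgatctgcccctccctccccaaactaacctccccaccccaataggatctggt
Bgn: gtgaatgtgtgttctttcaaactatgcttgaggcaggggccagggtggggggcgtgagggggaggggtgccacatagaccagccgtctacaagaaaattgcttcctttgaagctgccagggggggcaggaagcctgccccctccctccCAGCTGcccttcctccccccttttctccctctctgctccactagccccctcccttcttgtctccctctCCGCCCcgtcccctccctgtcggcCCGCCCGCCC
Aspn's window is chr13:49544193-49544442 on the plus strand. Prelp's window is chr1:133921402-133921651 on the minus strand, and Bgn's is chrX:73483351-73483600 on the plus strand.

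Base composition separated these windows. The Aspn window held 30.0% G and C, lower than all but 1.5% of 32851 promoters, whereas the Prelp window held 55.6% and the Bgn window 64.4%. Motifs were searched on both strands. They were the AP-1 motif TGANTCA, the TEAD motif GGAATG, the SMAD motif CAGAC, the MyoD type of E-box CAGCTG, the TATA box TATAAA, the GC box GGGCGG and the ATF4 type motif TGATGNAA. Aspn held 2 TATAAA matches, a motif present in 12.4% of all promoter windows. Both lay nearer the far end of the Aspn window than the transcription start. Prelp held 1 CAGAC match, present in 42.2%. Bgn held 3 GC boxes, of which the 2 next to the start overlap, and 1 CAGCTG. GC boxes were in 32.7% of windows and CAGCTG in 13%. TGANTCA (6.75% of windows), GGAATG (12.6%) and TGATGNAA (3.45%) did not occur in the 3 windows, which says only that these letters are not there. Promoter entries matched 6 of the 8 members, all but Dcn and Lum. In the remaining entries Fmod held 2 CAGAC matches. Ogn, whose listed start was not found in a GENCODE vM21 transcript, held 2 TATAAA, 1 CAGCTG and 1 GGAATG. The 2 TATAAA matches of Ogn overlap, on opposite strands. Podn had a pair of entries, with 2 GC boxes in one and 1 CAGCTG in the other.

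These cultures expressed the family unevenly. Bgn, Dcn and Ogn were abundant, Prelp and Aspn were lower, and Podn, Lum and Fmod were close to undetected. Levels between genes were compared as normalised reads per kb of the principal transcript. Bgn, the class I proteoglycan biglycan, stood at 6147 ± 495 reads per kb in Arrdc2 libraries and 6794 ± 335 in GFP libraries (SD, n = 5 each), higher than 98.8% of tested genes by its mean over all libraries. Dcn, which encodes decorin, its closest relative in class I, had 2001 ± 129 reads per kb in Arrdc2 libraries and 1495 ± 137 in GFP libraries. Ogn, the class III member osteoglycin or mimecan, had 1751 ± 181 reads per kb in Arrdc2 libraries and 1550 ± 140 in GFP libraries. Dcn and Ogn overlapped within their spread in GFP libraries, and their order depends on the length used. With the joined length of all annotated exons, a choice added after seeing the data, Dcn had 602.5 and 450.2 reads per kb in Arrdc2 and GFP libraries, below Ogn at 1751 and 1550. Bgn, on that length, had 2438 in Arrdc2 and 2695 in GFP.

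Prelp, a class II member that anchors basement membranes to collagen, followed with 106 ± 13.7 reads per kb in Arrdc2 libraries and 75 ± 2.51 in GFP libraries (SD, n = 5 each). Aspn encodes asporin, a class I protein that binds collagen and TGF-beta and lacks the usual sites for glycosaminoglycan chains. It had 15.3 ± 0.831 reads per kb in Arrdc2 libraries and 8.15 ± 2.14 in GFP libraries. The other 3 members lay below a mean rlog value of 3 and were not tested. Their mean rlog values were 2.67 for Podn, 1.90 for Lum and 1.03 for Fmod. Aspn, at 4.78, was the nearest member above that limit. Podn, Lum and Fmod averaged 2.002, 1.5 and 0.651 reads per kb over the 10 libraries, and neighbours in that order overlapped within their spread.

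**Figure D1:**
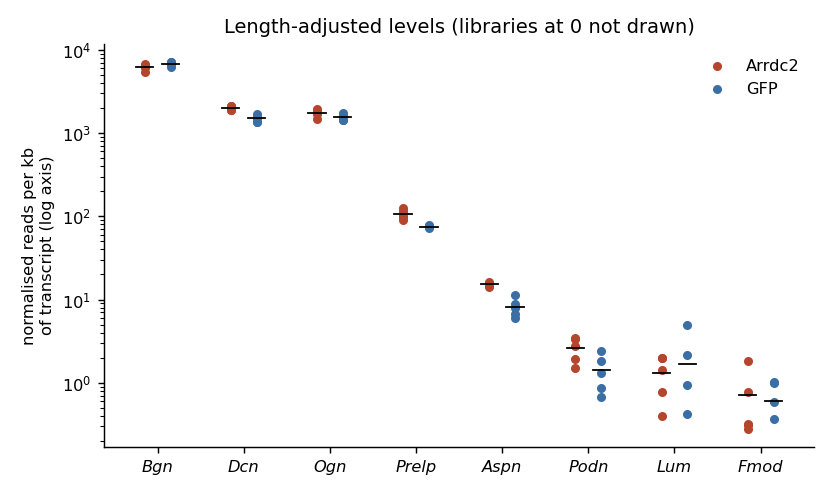
Normalised reads per kb of transcript (log axis) for the 8 members in each Arrdc2 (left of each pair) and GFP (right) library, with a bar at each group mean; libraries with 0 reads are not drawn. The mean of Bgn is 6147 in Arrdc2 and 6794 in GFP, and the levels step down through Dcn and Ogn, then Prelp, then Aspn, to Podn, Lum and Fmod.

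Of the 5 members above the rlog limit, Dcn, Prelp and Aspn rose, Bgn fell and Ogn did not pass the test. Each of the 5 lay above that limit in every library, so none was tested because of its high group alone. Among all tested genes 30.3% passed in either direction, 14.5% higher and 15.8% lower. Groups did not overlap on the rlog scale for Dcn, Prelp and Aspn, all with Arrdc2 above GFP. Among all tested genes 19.7% had groups that did not overlap, 8.7% with Arrdc2 above. The 5 tested members had a median log2 difference of 0.13 in the deposited values, against 0.0027 over all tested genes. That median is the value of Ogn, which did not pass. In bulk RNA, fewer cells of a type and less RNA per cell cannot be told apart, here and in all results that follow.

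Dcn rose 1.34-fold. Decorin carries a single chondroitin or dermatan sulfate chain, wraps collagen fibrils and binds TGF-beta and myostatin. Normalised reads were 3328, 3412, 3763, 3762 and 3322 in Arrdc2 libraries 6, 7, 9, 10 and 11, against 2668, 2751, 2944, 2365 and 2413 in GFP libraries 3 to 7. Every Arrdc2 library lay above every GFP library, and libraries 9 and 10 were the highest. The means were 3517 ± 227 in Arrdc2 and 2628 ± 241 in GFP (SD, n = 5 each), with a 95% interval of 1.23 to 1.46 on the fold. The log2 difference of the deposited values was 0.32 ± 0.04 (SE; limma adjusted p = 1.97e-05).

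Prelp rose 1.40-fold. Prelp had 329, 419, 451, 356 and 367 normalised reads in Arrdc2 libraries 6, 7, 9, 10 and 11, against 274, 259, 266, 275 and 282 in GFP libraries 3 to 7. The GFP libraries lay close together and all 5 Arrdc2 libraries lay above them, library 9 highest and library 6 lowest. The means were 384 ± 49.5 in Arrdc2 and 271 ± 9.08 in GFP (SD, n = 5 each; 95% interval of the fold 1.24 to 1.58). The log2 difference was 0.25 ± 0.04 (SE; limma adjusted p = 0.000123).

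Aspn rose 1.88-fold from few reads. Aspn had 35.1, 35.6, 37.2, 37.5 and 32.6 normalised reads in Arrdc2 libraries 6, 7, 9, 10 and 11, against 18.3, 14, 20.4, 15.6 and 26.7 in GFP libraries 3 to 7. The Arrdc2 libraries were nearly equal, and the highest GFP library, 7, stayed below the lowest of them. The means were 35.6 ± 1.94 in Arrdc2 and 19.0 ± 4.99 in GFP (SD, n = 5 each), and the fold had a 95% interval of 1.44 to 2.46. On the deposited scale, which shrinks genes with few reads, the log2 difference was 0.08 ± 0.02 (SE; limma adjusted p = 0.000766). Deposited values for Aspn thus spanned 4.80 to 4.83 in Arrdc2 and 4.72 to 4.78 in GFP. The gene span of Cenpp, a centromere protein gene on the opposite strand, overlaps those of Aspn and Ogn in the annotation. Cenpp had 111 normalised reads in Arrdc2 libraries and 88.3 in GFP libraries (limma adjusted p = 0.0402). The library kit kept strand. How the counting used it is not known here, and shared exons were not checked. How reads were divided between Cenpp and its partners is therefore uncertain.

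Bgn fell slightly, 1.11-fold. Biglycan usually carries a pair of chondroitin or dermatan sulfate chains, and once released from the matrix it is a ligand of Toll-like receptors. Bgn had 15447, 16151, 14921, 12932 and 14892 normalised reads in Arrdc2 libraries 6, 7, 9, 10 and 11, against 17105, 15133, 17097, 16275 and 16563 in GFP libraries 3 to 7. The groups overlapped, since GFP library 4 lay below Arrdc2 libraries 6 and 7, and Arrdc2 library 10 was the lowest of all. The means were 14869 ± 1197 in Arrdc2 and 16434 ± 810 in GFP (SD, n = 5 each), with a 95% interval of 1.03 to 1.19 on the fold. The log2 difference was −0.12 ± 0.04 (SE; limma adjusted p = 0.0369). The call was lost in 7 of the 10 fits that left out a library, namely GFP library 3 (limma adjusted p = 0.0921), 5 (0.0786), 6 (0.0572) or 7 (0.0691) and Arrdc2 library 9 (0.0598), 10 (0.0887) or 11 (0.0585). Without Arrdc2 library 10 the log2 difference of Bgn was −0.0783, and the call was also lost in 5 of 8 other settings.

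Ogn did not pass the test. Ogn had 3743, 4400, 4611, 4955 and 4756 normalised reads in Arrdc2 libraries 6, 7, 9, 10 and 11, against 3672, 4144, 4516, 3666 and 3888 in GFP libraries 3 to 7. Arrdc2 libraries 9, 10 and 11 lay above all GFP libraries, and Arrdc2 library 6 lay among the low GFP libraries. The means were 4493 ± 466 in Arrdc2 and 3977 ± 359 in GFP (SD, n = 5 each), with a fold of 1.13 (95% interval 1.02 to 1.24, not adjusted for the number of genes). The log2 difference was 0.13 ± 0.05 (SE; limma adjusted p = 0.0557). Ogn was past the threshold when either GFP library 5 was left out (limma adjusted p = 0.0156) or Arrdc2 library 6 was (0.00317).

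**Figure D2:**
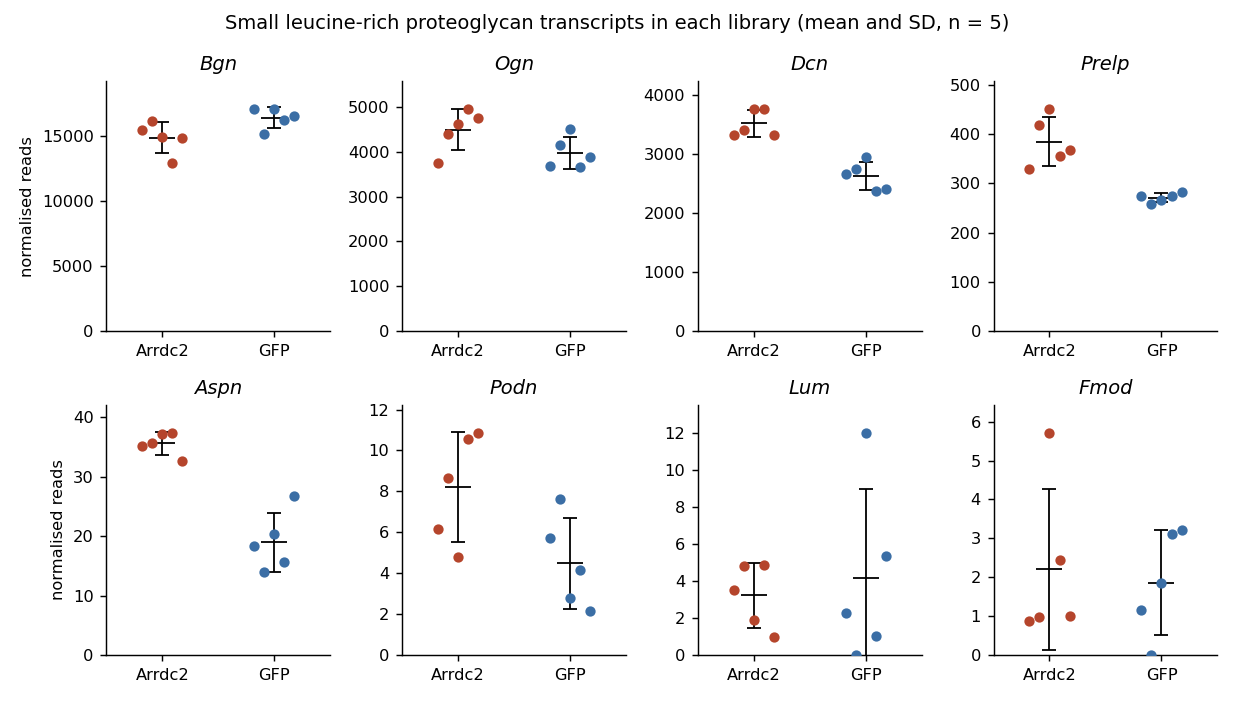
Normalised reads of the 8 members in each Arrdc2 (left) and GFP (right) library, with mean and SD (n = 5 per group); each panel has its own axis from 0. Dcn, Prelp and Aspn separate with Arrdc2 above GFP, Bgn and Ogn overlap, and Podn, Lum and Fmod rest on few reads.

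The 3 members below the limit had few reads, and no test was run on those reads. Podn, the class V member podocan, had 7, 9, 5, 13 and 11 whole reads in Arrdc2 libraries 6, 7, 9, 10 and 11, against 5, 6, 3, 4 and 2 in GFP libraries 3 to 7. Podn summed to 45 reads in Arrdc2 and 20 in GFP, and 3 Arrdc2 libraries lay above all GFP libraries in normalised reads. The gene span of Podn overlaps that of Scp2 on the same strand. Scp2 had 1810 and 1680 normalised reads in Arrdc2 and GFP. Shared exons were not checked, so whether the overlap touches the few reads of Podn is uncertain. Lum, which encodes the corneal keratan sulfate proteoglycan lumican, had 4, 5, 2, 6 and 1 reads in Arrdc2 libraries, against 2, 0, 13, 1 and 5 in GFP libraries. Fmod encodes fibromodulin, a regulator of collagen cross-linking, and had 1, 1, 6, 3 and 1 reads in Arrdc2 libraries, against 1, 0, 2, 3 and 3 in GFP libraries. With no filter on low values the limma adjusted p was 0.241 for Podn, 0.839 for Lum and 0.873 for Fmod. That fit used the deposited values, which shrink genes with few reads, so it cannot decide whether Podn differed.

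The library scaling cancels when 2 members are compared within a library. Dcn per kb amounted to 29.6, 29.1, 34.7, 40.0 and 30.7% of Bgn per kb in Arrdc2 libraries 6, 7, 9, 10 and 11, against 21.5, 25, 23.7, 20.0 and 20.0% in GFP libraries 3 to 7. The groups did not overlap, and Arrdc2 library 10, which had the lowest Bgn, had the highest ratio. The mean ratio was 32.8 ± 4.59% in Arrdc2 and 22 ± 2.24% in GFP (SD, n = 5 each). Ogn amounted to 28.8 ± 5.01% of Bgn per kb in Arrdc2 and 22.9 ± 2.40% in GFP, Prelp to 1.74 ± 0.222% and 1.11 ± 0.0475%, and Aspn to 0.251 ± 0.0307% and 0.120 ± 0.0291%. With the joined exon length, Dcn amounted to 24.9% in Arrdc2 and 16.7% in GFP, Ogn to 72.6% and 57.6%, Prelp to 4.37% and 2.79%, and Aspn to 0.625% and 0.298%. The length sets the size of each ratio and scales all libraries alike. These ratios reuse the values behind the differences above and are given as a description.

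**Figure D3:**
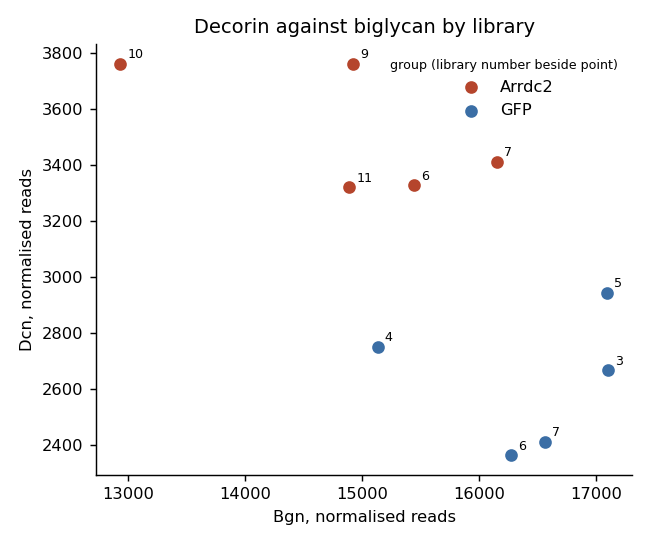
Dcn normalised reads against Bgn normalised reads in each library, labelled with its number; both axes start above 0. The lowest Arrdc2 library has 3322 Dcn reads and the highest GFP library 2944, while on the Bgn axis the groups overlap between 15133 and 16151.

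Members were also compared in pairs. Over the 10 libraries the rlog values of Dcn, Prelp and Aspn correlated with one another at r = 0.82 to 0.86. After subtracting each group's mean, the same pairs gave 0.04 to 0.22. Dcn and Ogn gave r = 0.74 over all libraries and 0.66 within groups, and Bgn and Ogn gave −0.63 and −0.43. All values come from the same 10 libraries and share their scaling, and they are descriptions with no test. Among tested genes with a symbol, the rlog profiles most like Dcn over the 10 libraries were those of Psme1 (r = 0.993), Ly6a (0.992) and Ehd2 (0.986). Those most like Bgn were Tnfrsf21 (0.941), Ube2d2a (0.909) and Srf (0.906). For Ogn they were Stx3 (0.975), Slc43a3 (0.968) and Pola2 (0.962). For Aspn they were Zfp995 (0.971), Qdpr (0.963) and H2afv (0.962), and for Prelp they included Zic1 (0.961) and Kif24 (0.958). All were picked as the highest among 14953 genes. After subtracting each group's mean, these r were 0.92 to 0.96 for Dcn, 0.84 to 0.9 for Bgn and 0.94 to 0.97 for Ogn. For Aspn they were 0.73 to 0.92, and for Prelp 0.83 with Zic1 and 0.78 with Kif24.

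Genes of the family that lie side by side differed widely in level. In the RefSeq gene order of GRCm38.p6, Dcn is followed by Lum, Kera and Epyc on chromosome 10. Dcn had at least 2365 normalised reads in every library, Lum at most 13 whole reads, Epyc 1 read in a single library and Kera none. On chromosome 13 the order is Ecm2, Aspn, Omd and Ogn. There Ogn was abundant, Aspn and Ecm2 were low, and Omd (osteomodulin) had 6, 8, 17, 12 and 13 reads in Arrdc2 libraries, against 7, 0, 7, 5 and 9 in GFP libraries. On chromosome 1 Prelp lies between Optc (opticin) and Fmod, and Optc had 7, 2, 3, 4 and 1 reads in Arrdc2 libraries, against 5, 3, 7, 6 and 2 in GFP libraries.

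Of 10 further genes of the family, 6 were tested, none rose and 2 fell, Tsku and Nyx. Tsku encodes tsukushi, a secreted class IV protein that binds BMP and Wnt ligands. Tsku averaged 342 ± 25.4 normalised reads in Arrdc2 and 414 ± 33.9 in GFP (SD, n = 5 each), 1.22-fold lower (95% interval 1.10 to 1.35; limma adjusted p = 0.0053). Nyx, the class IV gene nyctalopin known from the retina, averaged 12.7 ± 1.70 in Arrdc2 and 20.2 ± 5.84 in GFP, 1.55-fold lower (1.11 to 2.17; limma adjusted p = 0.041). The Nyx call was lost without GFP library 3, 5 or 7 or Arrdc2 library 6, 7, 9 or 10, with limma adjusted p between 0.0574 and 0.122. Podnl1 had a fold of 1.04 (0.947 to 1.15), Ecm2 0.859 (0.680 to 1.09), Chadl 0.916 (0.709 to 1.18) and Omd 2.16 (0.986 to 4.72), with limma adjusted p of 0.526, 0.276, 0.543 and 0.138. Kera and Chad had 0 reads in every library, which allows up to 3 reads in each, counting error only.

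**Figure D4:**
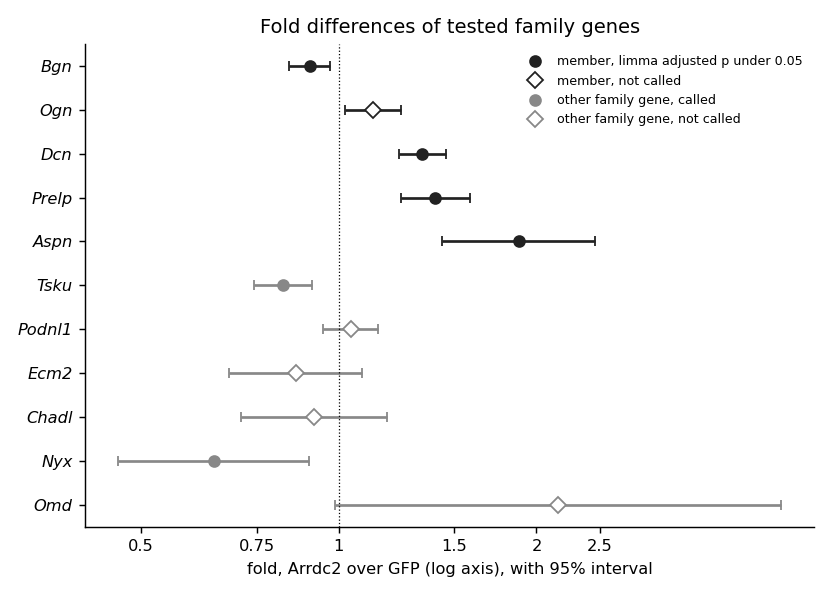
Fold of Arrdc2 over GFP (log axis) with 95% interval for the 5 tested members (black) and 6 other tested family genes (grey); filled circles passed the limma test. Intervals of Dcn, Prelp and Aspn lie above 1, those of Bgn, Tsku and Nyx below 1, and Omd has the widest.

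Enzymes that build the glycosaminoglycan chains of decorin and biglycan came next. Of 29 genes for the linker and for chondroitin and dermatan sulfate, 27 were tested, 9 rose and 2 fell, against the background of 14.5% and 15.8%. Their median log2 difference was 0.04. Chst3, a chondroitin 6-O-sulfotransferase, rose 1.38-fold to 383 ± 26.6 normalised reads in Arrdc2, against 278 ± 45.9 in GFP (SD, n = 5 each; 95% interval of the fold 1.21 to 1.57; limma adjusted p = 0.000639). Chst12, a chondroitin 4-O-sulfotransferase, rose 1.31-fold (limma adjusted p = 0.00147). Dsel, related to the epimerase that turns chondroitin into dermatan, rose 1.23-fold (limma adjusted p = 0.00613). Chst11, another chondroitin 4-O-sulfotransferase, fell 1.21-fold to 743 ± 50.5 normalised reads, against 895 ± 74.6 in GFP (limma adjusted p = 0.0023). Thus the 2 named 4-O-sulfotransferases passed in opposite directions.

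Keratan sulfate enzymes, which act on lumican and fibromodulin, gave 2 rises among 10 tested genes of 12, with a median of 0.02. They were Chst1, a keratan sulfate sulfotransferase (1.22-fold, limma adjusted p = 0.0401), and St3gal2, a sialyltransferase (1.12-fold, limma adjusted p = 0.0194). Neither passed without GFP library 3, GFP library 7 or Arrdc2 library 9, and Chst1 also failed without GFP library 6 or Arrdc2 library 10.

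Several collagens that these proteoglycans bind rose. Of 13 genes 12 were tested, 5 rose and none fell, and the median log2 difference was 0.06. Col3a1, fibrillar collagen type III, rose 1.21-fold to 51301 ± 1863 normalised reads in Arrdc2, against 42427 ± 2606 in GFP (SD, n = 5 each; 95% interval of the fold 1.14 to 1.28; limma adjusted p = 0.000112). Col6a2 (1.22-fold, limma adjusted p = 0.0103) and Col6a1 (1.19-fold, 0.00486) encode chains of the beaded type VI collagen that biglycan and decorin bind. Col12a1, a fibril-associated collagen, rose 1.18-fold (limma adjusted p = 0.0116). The main type I chains did not pass, with Col1a1 at a fold of 0.962 (0.847 to 1.09) and Col1a2 at 1.02 (0.929 to 1.12), named after their values were seen.

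Growth factors and receptors known to bind the family gave 3 rises and 6 falls among 20 tested genes of 24, with a median log2 difference of −0.04. Ccn2, the matricellular protein formerly called connective tissue growth factor, fell 2.44-fold to 984 ± 105 normalised reads in Arrdc2, against 2393 ± 207 in GFP (SD, n = 5 each; 95% interval 2.21 to 2.69; limma adjusted p = 1.42e-10). Mstn, which encodes myostatin, the growth factor that limits muscle mass, rose 1.83-fold to 222 ± 53.7 in Arrdc2, against 119 ± 18.3 in GFP (95% interval 1.47 to 2.29; limma adjusted p = 0.000181). P2rx7, a purine receptor that biglycan engages in macrophages, fell 1.22-fold (limma adjusted p = 0.00224). Pdgfa, a growth factor ligand, fell 1.18-fold (limma adjusted p = 0.000437). Tgfb1, the ligand that decorin binds, was not called (fold 1.12, 1.01 to 1.24, limma adjusted p = 0.0787), named after its value was seen.

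Transcripts used as readouts of TGF-beta and SMAD signalling fell or did not pass. Of 18 genes, all tested, 9 fell and none rose, with a median log2 difference of −0.10 against 0.0027 over all tested genes. Besides Ccn2, they included Ccn1, a related matricellular protein (2.02-fold lower, limma adjusted p = 1.42e-10), and Smad7, the inhibitory SMAD (2.15-fold lower, 1.36e-09). In each of these 3 genes every Arrdc2 library lay below every GFP library, as in 11.0% of all tested genes. The 3 were named for the largest log2 differences in the list, so their separation largely follows from that choice and is a description only. Ccn2 counts both in this list and among the growth factors above. The signalling itself was not measured.

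Proteases that cut the cores or free the chains, with their inhibitors and cofactors, gave 4 rises and 2 falls among 17 tested genes of 19, with a median of 0.04. Timp3 and Timp1, inhibitors of metalloproteinases, fell 1.23-fold (limma adjusted p = 0.000152) and 1.16-fold (0.00142). Adamts4, an aggrecanase, rose 1.18-fold (limma adjusted p = 0.0082), and Pcolce, which speeds removal of the procollagen C-propeptide, rose 1.13-fold (0.00881). Bmp1, the protease that removes the propeptide of biglycan, did not pass (fold 1.06, 0.999 to 1.13, limma adjusted p = 0.132), named after its value was seen. Of 30 other proteoglycan core and related genes, 18 were tested, 5 rose and 1 fell, with a median of 0.01. Sdc3 (1.21-fold, limma adjusted p = 0.000777), Sdc1 (1.15-fold, 0.00267) and Sdc2 (1.13-fold, 0.0015) are syndecans, which carry heparan sulfate at the cell surface. The fourth syndecan, Sdc4, was the gene that fell (log2 difference −0.10, limma adjusted p = 0.0147, named after its value was seen), and the list had no fall with quantile normalization or with reads scaled to the library total. Agrn, the organiser of acetylcholine receptors at the synapse, rose 1.21-fold (limma adjusted p = 0.00592).

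**Figure D5:**
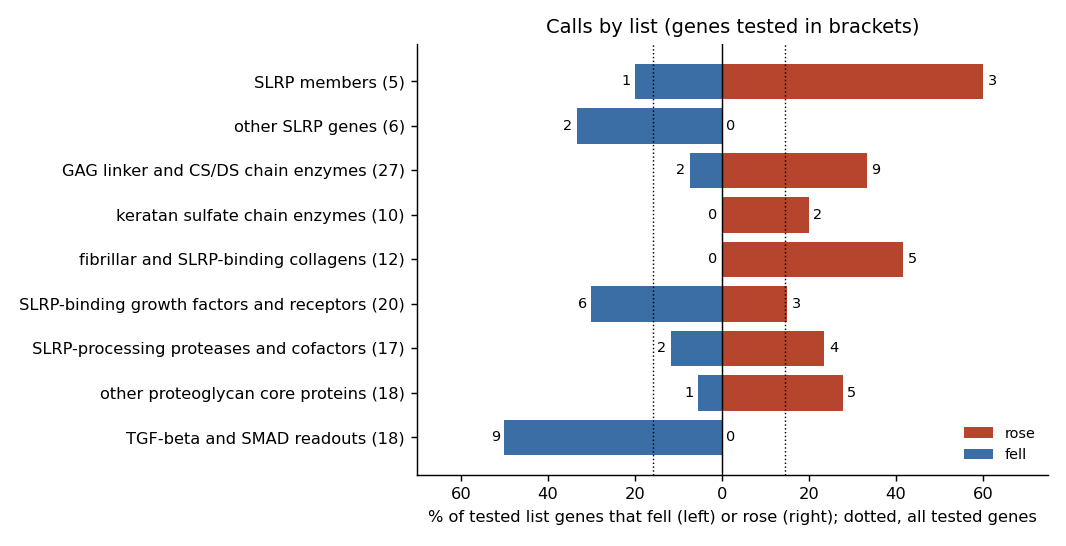
Share of tested genes in each list that fell (left of 0) or rose (right of 0), with counts beside the bars and the shares over all tested genes as dotted lines. The members show 3 rises and 1 fall among 5, the TGF-beta and SMAD readouts 9 falls and no rise among 18.

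Decorin, Prelp and asporin are also products of fibroblasts, and markers of fibroblasts were read beside them. Of 14 fibroblast and fibro-adipogenic markers 10 were tested, of which 5 rose, none fell and 5 did not pass. Their summed level was 21492 to 23924 normalised reads in Arrdc2 libraries and 17110 to 18917 in GFP libraries. Gsn, which encodes gelsolin and is also expressed in muscle, made up 49.0% of that sum. Without Gsn the sum was 10674 to 11816 in Arrdc2 and 8763 to 10024 in GFP. Ly6a rose 1.24-fold (limma adjusted p = 0.0001), Gsn 1.27-fold (1.16e-05) and Fbln1 1.3-fold (0.00278). Pi16 rose 1.31-fold (limma adjusted p = 0.0202), but not without GFP library 3 (0.0629). The defining receptor Pdgfra had 143 ± 11.4 normalised reads in Arrdc2 and 123 ± 19.8 in GFP (SD, n = 5 each; limma adjusted p = 0.13). Pdgfrb had 1432 ± 119 in Arrdc2 and 1527 ± 140 in GFP (limma adjusted p = 0.296). Cd34 (fold 1.17, limma adjusted p = 0.0747), Mfap5 (1.055, 0.668) and Clec3b (1.21, 0.327) did not pass either. Pdgfrb, Cd34, Mfap5 and Clec3b were named after their values were seen. Thy1 and Tcf21 averaged 1.15 and 0 normalised reads in Arrdc2, against 0.792 and 0.229 in GFP. Dpp4 averaged 0.531 in Arrdc2 and 2.08 in GFP, and no marker of the list was at 0 in all libraries. The labels name a single myoblast line and no fibroblasts. Any part of fibroblast-like cells in the rises of Dcn, Prelp and Aspn was not tested.

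Markers of other cell types ranged from 0 to abundant. Tnmd, the tendon marker, averaged 0.752 normalised reads in Arrdc2 and 1.21 in GFP, and the other tendon marker Kera was at 0. Of 8 tenocyte markers 4 were tested and 1 fell, the tendon regulator Scx, at 2403 normalised reads in Arrdc2 and 2754 in GFP (1.14-fold, limma adjusted p = 0.00474). The list had sums of 11011 to 12635 in Arrdc2 and 11964 to 13682 in GFP, of which Tnc made up 71.3%. Of 11 cartilage and bone markers 4 were tested and none passed, and the regulators Sox9 (1565 normalised reads in Arrdc2 and 1534 in GFP) and Runx2 (456 in Arrdc2 and 482 in GFP) were present, while the cartilage proteoglycan Acan averaged 0.191 in Arrdc2 and 0 in GFP. Their sums were 36905 to 39623 and 37239 to 39280, and Spp1 made up 94.6% of them. Of 6 adipocyte markers only Pparg was tested, and it fell 1.18-fold (limma adjusted p = 0.0148). The sum was 260 to 309.97 in Arrdc2 and 300.5 to 357 in GFP, with Adipoq at 1.09 and 0.635. Of 8 macrophage and endothelial markers 2 were tested and Tek rose 1.61-fold (limma adjusted p = 0.00578), with sums of 139 to 166 in Arrdc2 and 129 to 141 in GFP, while Ptprc averaged 0.751 and 1.38 and Adgre1 0 and 0.185.

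Muscle markers were abundant in both groups. Of 10 myoblast and reserve cell markers 9 were tested, 4 rose and 1 fell. Their sums were 86234 to 92624 normalised reads in Arrdc2 and 86512 to 96659 in GFP, of which Itga7 made up 52.0%. Without Itga7 the sums were 42075 to 45773 in Arrdc2 and 40713 to 46898 in GFP. Pax7 (1.24-fold, limma adjusted p = 0.00963), Myf5 (1.17-fold, 0.00102) and Top2a, a gene of dividing cells (1.20-fold, 0.0123), rose, and Ncam1 fell 1.14-fold (0.0026). Of 12 myotube markers 2 fell, Myh8 (1.27-fold, limma adjusted p = 1.49e-05) and Acta1 (1.14-fold, 0.0087), and without Arrdc2 library 10 the list had 4 falls and 1 rise. These counts moved with the scaling and weighting. Median centring gave 4 falls and 0 rises, quantile normalization 1 fall and 2 rises, library weights 5 falls and 1 rise, and reads scaled to the library total 2 falls and 2 rises. Myotube marker sums were 271241 to 287271 in Arrdc2 and 286871 to 306543 in GFP. Acta1 made up 25.3% of them, and without it the sums were 207658 to 213406 in Arrdc2 and 208169 to 225379 in GFP. These shifts stand beside those of the proteoglycans, and their part in them was not tested.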

How the data were processed

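The authors deposited one table of regularized log (rlog) values, on the log2 scale, for 57010 mouse genes in 10 libraries. The submitters' processing notes name STAR 2.7.10a, DESeq2 1.30.1 and GRCm39, whereas the counting tool and its strand setting were not stated. The transformation shrinks each library towards the gene's mean, most where reads are few. Per the labels' protocols, libraries were strand-specific, from polyadenylated RNA, with paired reads of 50 bases. Each column served as a replicate of its group.

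Genes with a mean rlog of at least 3, 15223 in all, entered a limma 3.58.1 fit (R 4.3.3) of the deposited values with group as the only term and a trended empirical Bayes prior. Benjamini-Hochberg adjustment covered all of these genes, and a gene "rose" or "fell" at an adjusted p under 0.05. Because log2 differences of shrunken values understate the change of genes with few reads, whole reads were solved from the penalised fit that makes rlog values. For 9970 genes kept out of that fitting, 99.1% of values of 1 read or more lay within 0.1 of an integer. The share was 88.5% in the class with the most reads per gene, where solved reads are therefore less exact. Normalised reads are solved reads over size factors, and folds with 95% intervals come from limma voom on the solved reads. Depth was 18.93 to 28.65 M (mega) reads per library. Both steps were tested on simulated data.

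Symbols were matched by identifier to a GENCODE vM21 table (52029 of 57010). Lengths are of the APPRIS principal transcript in that annotation, which belongs to GRCm38. Promoters come from RefSeq on GRCm38.p6. The members and gene lists were chosen with earlier results of these data known. Named genes are the 8 members, 10 other family genes, Arrdc2, up to 4 called genes per list by size of log2 difference, and the 3 most similar profiles per tested member; exceptions are stated, and 2 genes that the rule names are not reported here. Alternatives were other filters, scalings and variance settings, voom, and leaving out each library.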

Additional observations from a re-analysis of the deposited data

Results flagged for a closer look

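One value stood apart from its group by Dixon's test, applied to normalised reads of the members and other family genes in 31 groups of 5 libraries, of which chance flags about 1 in 20. Epyc, the class III gene epiphycan known from cartilage, had 0.954 normalised reads in Arrdc2 library 9, a single read, and 0 in the other 4 Arrdc2 libraries and in all GFP libraries. A single read is within the 3 that a count of 0 allows.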

How the results depend on the processing

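Dcn and Prelp kept their direction and their side of the threshold in all 18 alternatives, and Aspn in each alternative that tested it, since a minimum mean rlog of 5 leaves it out. With a library left out, the log2 difference ran from 0.29 to 0.35 for Dcn, from 0.22 to 0.28 for Prelp and from 0.08 to 0.09 for Aspn, and over all alternatives the largest limma adjusted p was 0.00037, 0.000695 and 0.00398. Bgn kept its direction but not its call. It missed the threshold with no filter on low values (−0.12, limma adjusted p = 0.107), quantile normalization (−0.0822, 0.14), no mean-variance trend (−0.12, 0.0608), library weights (−0.0924, 0.0723) and reads scaled to the library total (−0.11, 0.102), each of which takes the number of members that fell to 0. With a library left out Bgn ran from −0.1424 to −0.0783, and the number of members that fell from 0 to 1. Ogn passed with quantile normalization (0.16, limma adjusted p = 0.0288), library weights (0.13, 0.0332) and reads scaled to the library total (0.21, 0.0228), and ran from 0.11 to 0.18 with a library left out. Why these settings move Bgn and Ogn was not tested. The number of members that rose was 2 to 4. Over all tested genes 1712 to 3063 rose and 1774 to 2960 fell. The supporting lists together had 38 rises (28 to 51) and 26 falls (21 to 29). Keratan sulfate enzymes had 0 to 3 rises, collagens 3 to 6, and Nyx also failed with no filter (limma adjusted p = 0.124), no mean-variance trend (0.127) and reads scaled to the library total (0.0568). Among named genes, Col12a1 (limma adjusted p = 0.0515), Top2a (0.0564), St3gal2 (0.0607) and Chst1 (0.107) also missed with no filter, Acta1 (0.106), Pi16 (0.0532), Chst1 (0.0678) and Arrdc2 (0.0518) with quantile normalization, and Chst1 with median centring (0.0515) and no trend (0.0724). No result changed sign with a call. No paired analysis was possible because the columns carry library numbers that are not the replicate numbers of the labels. Depth limits Podn, Lum and Fmod, with 9 to 45 reads per group.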
